A study of Homo sapiens with 30 samples.

Results

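The 9 genes described here encode the core of the MHC class I antigen presentation pathway, and their nascent transcription was followed in A549, a human cell line from a lung adenocarcinoma. They were taken by name as the rows of the deposited gene count table for HLA-B, HLA-C, HLA-E, HLA-F, B2M, TAP1, TAP2, PSMB8 and PSMB9, which makes 9 of 58780 genes in all. All 9 passed the filter on low counts that left 22919 genes for testing. Transcription was measured by PRO-seq (precision run-on sequencing), in which polymerases that are already on a gene add a labelled nucleotide in permeabilised cells and the labelled RNA is sequenced. The 30 libraries form 15 groups of 2 samples. Dexamethasone (Dex), a man-made glucocorticoid, was used at 100 nM. GSK591, which blocks the arginine methyltransferase PRMT5, and MS023, which blocks Type I arginine methyltransferases, were each used at 1 µM. The groups without an inhibitor were untreated cells, Dex for 15 min and Dex for 3 h. Each inhibitor was given together with Dex for 3 h, alone for 2, 4 or 7 days, or for 7 days and then with Dex added for 15 min or 3 h. All groups, untreated cells included, received 0.01% DMSO, and a single untreated group, whose labels give 15 min, served as the control for every treatment time. The labels do not say whether the 2 samples of a group came from separate cultures, so p-values measure the spread between these samples, which may be technical.

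Class I molecules carry short peptides from inside the cell to its surface, where CD8+ T cells and natural killer cells read them. HLA-B and HLA-C are heavy chains of the classical kind, HLA-E and HLA-F are heavy chains of the non-classical kind, and B2M (beta-2-microglobulin) is the light chain that pairs with them. PSMB8 and PSMB9 are catalytic subunits of the immunoproteasome, which cuts proteins into peptides, and TAP1 with TAP2 forms the transporter that moves these peptides into the endoplasmic reticulum. In many cell types interferon raises transcription of the whole set through IRF and STAT factors and the coactivator NLRC5, while NF-kB and NF-Y bind class I promoters.

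The genes lie in the MHC region of chromosome 6 with the exception of B2M on chromosome 15. TAP2 (chromosome 6, 32821833 to 32838780, minus strand, GENCODE 29 coordinates on GRCh38), PSMB8 (32840717 to 32844703, minus strand), TAP1 (32845209 to 32853978, minus strand) and PSMB9 (32844136 to 32859585, plus strand) lie close together. The annotated span of PSMB9 contains TAP1 and overlaps PSMB8. HLA-F (29722775 to 29738528, plus strand), HLA-E (30489467 to 30494205, plus strand), HLA-C (31268749 to 31272130, minus strand) and HLA-B (31269491 to 31357188, minus strand) lie at lower coordinates of the same chromosome. The annotated spans of HLA-C and HLA-B overlap. B2M spans 44711487 to 44718877 on the plus strand of chromosome 15. RefSeq promoter windows (build GRCh38.p14, from 250 bases before to 50 after a start site) matched 8 of the 9 genes by symbol, with 2 windows each for TAP1 and PSMB8 and none for HLA-E. The 5 windows below are shown because they belong to the classical heavy chain HLA-C, to HLA-F and PSMB8, which had the largest called changes with the inhibitors, and to B2M and TAP1, whose patterns over the groups differed from those. They are written 5′ to 3′ on the gene's strand, and capitals mark matches, on either strand, to GAAANNGAA (interferon regulatory factor), TTCNNNGAA (STAT), GGGNNTTCC (NF-kB) or CCAAT (NF-Y), where N is any base.
HLA-C (chr6:31272043-31272342, minus strand): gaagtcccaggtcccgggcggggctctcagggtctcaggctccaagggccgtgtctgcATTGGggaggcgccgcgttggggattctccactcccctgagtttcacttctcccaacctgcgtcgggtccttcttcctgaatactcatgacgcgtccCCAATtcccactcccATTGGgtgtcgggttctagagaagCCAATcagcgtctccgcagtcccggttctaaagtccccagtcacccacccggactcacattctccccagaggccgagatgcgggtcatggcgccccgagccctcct
HLA-F (chr6:29723184-29723483, plus strand): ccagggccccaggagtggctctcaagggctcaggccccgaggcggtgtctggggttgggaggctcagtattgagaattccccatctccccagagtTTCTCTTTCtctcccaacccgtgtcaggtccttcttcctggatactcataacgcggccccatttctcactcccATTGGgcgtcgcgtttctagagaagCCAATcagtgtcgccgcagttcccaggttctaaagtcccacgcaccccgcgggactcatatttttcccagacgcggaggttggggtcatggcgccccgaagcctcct
PSMB8, the second window (chr6:32843998-32844297, minus strand): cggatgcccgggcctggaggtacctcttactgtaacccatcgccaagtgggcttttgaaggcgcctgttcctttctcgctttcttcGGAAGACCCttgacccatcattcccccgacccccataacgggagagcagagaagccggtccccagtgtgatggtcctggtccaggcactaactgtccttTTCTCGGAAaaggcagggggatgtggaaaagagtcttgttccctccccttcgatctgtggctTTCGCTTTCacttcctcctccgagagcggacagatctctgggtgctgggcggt
B2M (chr15:44711267-44711566, plus strand): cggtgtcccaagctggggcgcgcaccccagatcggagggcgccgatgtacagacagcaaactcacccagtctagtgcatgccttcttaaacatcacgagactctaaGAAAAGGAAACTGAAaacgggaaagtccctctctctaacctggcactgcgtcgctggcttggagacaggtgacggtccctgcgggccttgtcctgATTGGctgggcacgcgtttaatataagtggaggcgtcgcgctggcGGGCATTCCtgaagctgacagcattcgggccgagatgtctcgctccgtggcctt
TAP1, the first window (chr6:32853655-32853954, minus strand): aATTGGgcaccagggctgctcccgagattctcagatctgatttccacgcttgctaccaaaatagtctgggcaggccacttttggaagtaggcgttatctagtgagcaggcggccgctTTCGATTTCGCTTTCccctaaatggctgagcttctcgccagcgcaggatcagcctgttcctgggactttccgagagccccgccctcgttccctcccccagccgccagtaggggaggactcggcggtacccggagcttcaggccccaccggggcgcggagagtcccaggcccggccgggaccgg

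GAAANNGAA was found in the windows of 5 of the 8 genes and in 8.11% of all 35116 RefSeq windows. The 5 were HLA-F, B2M, TAP1, TAP2 and PSMB8. In B2M the motif was matched 2 times, at 144 and 138 bases before the start, and these matches overlap. TAP1 also has 2 overlapping matches. TTCNNNGAA was found in 2 of the 8 (7.66% of all windows), GGGNNTTCC in 3 (6.58%) and CCAAT in 6 (34.6%). HLA-B, HLA-C and HLA-F each hold CCAAT matches on both strands upstream of the start. The start of the first TAP1 window and that of PSMB9 lie 488 bases apart in opposite directions, and their windows share 13 bases. A gene with 2 windows was counted if either matched, whereas the background is per window. The first PSMB8 window holds no match to any of these motifs. A match describes these letters only, and binding was not measured. Sites that differ from these patterns are not marked, so a gene without a match can still hold one.

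Total counts per library ran from 8441211 to 13069598, of which mitochondrial genes took 58.7% to 78.7%, and nuclear genes outside ribosomal RNA were left with 2497281 to 3934713. The 9 class I genes together had 330 to 1005 counts in a library (median 494). HLA-E was covered best, with 119 to 376 counts, and PSMB9 least, with 4 to 17. HLA-B (3 to 36) and TAP2 (3 to 28) were also thinly covered, so that changes of moderate size in these 3 genes could not be detected at this depth. Coverage of HLA-F (9 to 48) and PSMB8 (8 to 56) was low as well, so their fold changes rest on few counts. The mitochondrial share moved with the treatment, at 74.7% ± 1.88 (SD, n = 2) in untreated cells, 65.5% ± 0.806 after MS023 for 4 days and 69.9% ± 0.555 after GSK591 for 4 days. With mitochondrial and ribosomal RNA genes removed, no call of a single gene among the 9 was lost. The part of the mitochondrial share in the results was not tested otherwise. Scaling by TMM (trimmed mean of M values), which sets the typical gene equal between libraries, was used except in the alternatives that changed it. The 2 libraries of MS023 with Dex for 3 h differed from each other most of all groups, with a chi-square per degree of freedom of 14.9 against 1.78 to 8.97 elsewhere. The 5 epithelial marker genes summed to 368 to 1105 CPM (CPM being the usual depth-scaled count, here with TMM) in all libraries. KRT8, KRT7 and KRT18 carried this sum, with means over all libraries of 261, 254 and 111 CPM, while EPCAM (2.55 CPM) and CDH1 (2.93 CPM) were low, below the means of the blood marker NKG7 (5.23 CPM) and the fibroblast marker COL1A1 (4.39 CPM). Of the blood markers PTPRC, CD3E and LYZ had 0 to 5 counts, whereas NKG7 had 18 to 102, CD14 6 to 59 and ITGAM 1 to 34, and the 7 blood markers together summed to 9.57 to 12.8 CPM in untreated cells and 8.12 to 10.2 CPM after MS023 for 4 days. Between these groups the epithelial sum moved from 569 to 577 CPM down to 419 to 423 CPM, that of 3 fibroblast genes from 3.45 to 5.14 CPM to 4.77 to 6.54 CPM, and that of 3 endothelial genes from 0.705 to 1.00 CPM to 1.57 to 2.06 CPM. The part of these shifts in the results was not tested. In bulk libraries fewer cells with a transcript and less of it per cell cannot be told apart.

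In untreated cells the heavy chain HLA-E was transcribed most. Per kilobase of annotated exon, it stood at 5.71 ± 0.0215 CPM (SD, n = 2), HLA-C at 3.56 ± 0.706, B2M at 1.52 ± 0.155 and TAP1 at 1.45 ± 0.0081. PSMB8 followed at 0.645 ± 0.295 CPM per kilobase and HLA-B at 0.384 ± 0.0758. TAP2 (0.273 ± 0.00739), HLA-F (0.255 ± 0.0339) and PSMB9 (0.255 ± 0.104) were lowest. B2M and TAP1 did not differ beyond their spread, nor did the 3 lowest genes. The order depends on how reads were assigned. In HLA-B 13.3%, in HLA-C 17.1%, in HLA-E 11.1% and in TAP2 31.8% of all 30-base stretches of their transcripts also occur in transcripts of other genes, against 1.76% in B2M and none in PSMB8, and HLA genes vary between people, so an allele unlike the reference can lose reads, which was not tested. TAP2 shares 2064 exonic bases on its own strand with the annotated gene AL669918.1, which had 0 to 6 counts. On the opposite strand, PSMB8 shares 618 exonic bases with PSMB8-AS1 and 139 with PSMB9, TAP1 shares 456 with PSMB8-AS1, and HLA-B shares 542 with AL671883.2. HLA-F shares 701 with AL645939.1, 535 with HLA-F-AS1 and 257 with RPL23AP1. Use of strand in the counting is not given in the sources used here, so antisense and sense reads of these 5 genes cannot be told apart.

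**Figure D1:**
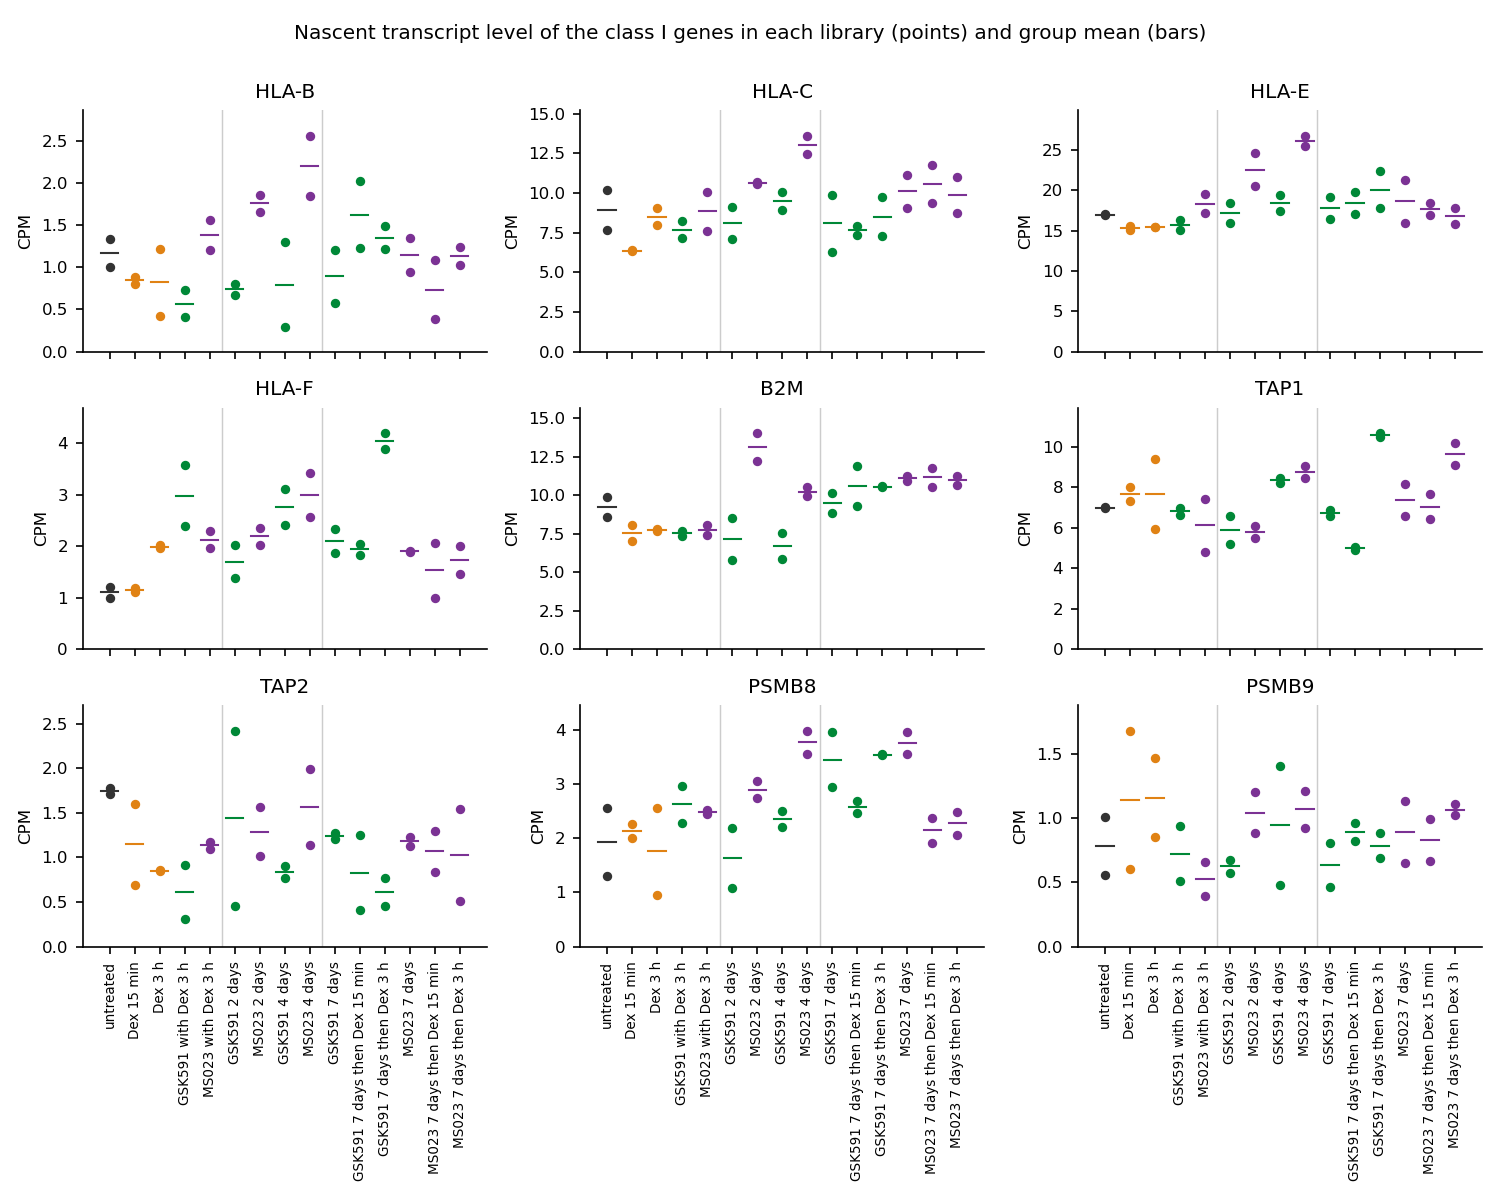
Level of each gene (vertical axis, CPM, TMM-scaled, starting at 0) in the 15 groups (horizontal axis), with points for the 2 libraries and bars for their mean, purple for MS023, green for GSK591, orange for Dex alone and black for untreated. HLA-B, HLA-C, HLA-E and PSMB8 were highest after MS023 for 4 days, HLA-F and TAP1 after GSK591 for 7 days followed by Dex for 3 h.

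The question of what Type I arginine methyltransferase inhibition does to these genes was addressed by MS023 alone against untreated cells. After 4 days, 4 of the 9 genes rose, namely HLA-C, HLA-E, HLA-F and PSMB8, and none fell, which is 3 heavy chains and 1 immunoproteasome subunit. Of all 22919 genes, 14.2% were called in this comparison and 7.8% were called higher. The median log2 fold change of the 9 genes was 0.54, against -0.001 for all genes. With total counts as the only scaling these medians were 1.28 and 0.741 and 49.2% of all genes were called, so the changes given are relative to the typical gene. In 7 of the 9 genes both MS023 libraries stood above both untreated ones, and in TAP2 and PSMB9 the groups overlapped. How many of all genes separated in this way was not counted, so this count has no background beside it.

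HLA-E presents peptides from the leaders of other class I chains to natural killer cell receptors. It stood at 17.0 and 16.9 CPM in the untreated libraries and at 25.5 and 26.8 CPM after MS023 for 4 days. The groups lay far apart relative to their spread, with a log2 fold change of 0.62 (SE 0.140, adjusted p = 0.00128, by edgeR's quasi-likelihood test, Benjamini-Hochberg adjusted over all genes). HLA-E passed the threshold under all 12 alternatives run for it, with log2 fold changes of 0.59 to 0.66 when any of the 4 libraries was left out and 1.37 with total counts as the only scaling. It was the only one of the 4 called genes that did so.

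HLA-F, a heavy chain that is mostly held inside the cell, stood at 1.00 and 1.21 CPM in untreated cells and at 2.56 and 3.42 CPM after MS023 for 4 days. These values rest on 9 and 12 counts in untreated cells and on 36 and 48 after MS023. The untreated group had the lowest mean of the 15 groups, and the log2 fold change was 1.42 (SE 0.363, adjusted p = 0.0048 by edgeR). The call was lost without MS023 4 days replicate 2 (log2 fold change 1.20, adjusted p = 0.0888) and without untreated replicate 1 (1.30, adjusted p = 0.0823). Its antisense neighbour HLA-F-AS1, at 0.535 CPM in untreated cells and 0.889 CPM after MS023, had a log2 fold change of 0.73 (SE 0.597, adjusted p = 0.461 by edgeR). AL645939.1, also on the other strand, stood at 0.0556 and 0.356 CPM in these groups, which did not overlap. It had 0 to 8 counts per library, too low to test.

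HLA-C, the main classical ligand of killer cell immunoglobulin-like receptors, stood at 7.67 and 10.2 CPM in untreated cells and at 12.4 and 13.6 CPM after MS023 for 4 days. The groups did not overlap, but the untreated libraries were spread widely, and the log2 fold change of 0.54 (SE 0.191) passed the threshold narrowly (adjusted p = 0.0492 by edgeR). DESeq2 gave an adjusted p of 0.154. The call was also lost without untreated replicate 1 (log2 fold change 0.36), without MS023 4 days replicate 1 (0.60) and without MS023 4 days replicate 2 (0.48).

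PSMB8, the immunoproteasome subunit that takes the place of PSMB5, stood at 2.56 and 1.31 CPM in untreated cells and at 3.98 and 3.56 CPM after MS023 for 4 days. These values rest on 23 and 13 counts in untreated cells and on 56 and 50 after MS023. Its log2 fold change was 0.98 (SE 0.327, adjusted p = 0.036 by edgeR). DESeq2 gave an adjusted p of 0.139, and the call was lost without untreated replicate 2 (log2 fold change 0.56), without MS023 4 days replicate 1 (0.89) and without MS023 4 days replicate 2 (1.06). PSMB8-AS1, which lies across it on the other strand, stood at 0.464 CPM in untreated cells and 0.534 CPM after MS023 for 4 days and was too low to test.

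The other 5 genes did not pass. HLA-B stood at 1.34 and 1.01 CPM in untreated cells and at 1.85 and 2.56 CPM after MS023 for 4 days, a log2 fold change of 0.91 with an adjusted p of 0.191 by edgeR. PSMB9, the subunit that takes the place of PSMB6, had a log2 fold change of 0.43 (adjusted p = 0.666 by edgeR) on 7.5 counts per untreated library. TAP1 had a log2 fold change of 0.33 (adjusted p = 0.302 by edgeR), B2M one of 0.15 (adjusted p = 0.624) and TAP2 one of -0.16 (adjusted p = 0.878). The light chain and the transporter were therefore not among the genes called.

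**Figure D2:**
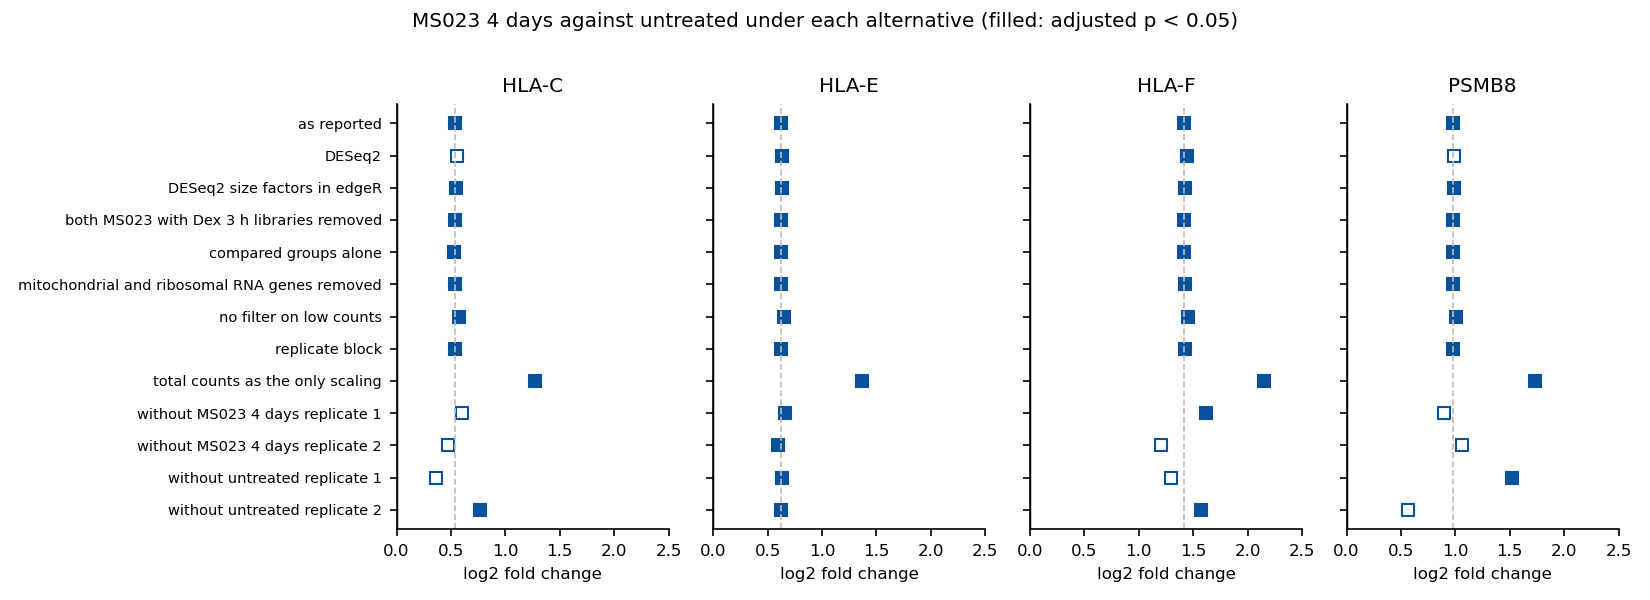
Log2 fold change after MS023 for 4 days against untreated cells (horizontal axis) for the 4 called genes, under each alternative (rows), filled where the adjusted p was below 0.05 and with the reported value as a dashed line. HLA-E stays filled in every row, while HLA-C and PSMB8 are open under DESeq2 and when some of the single libraries are left out.

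At 2 days of MS023 none of the 9 genes passed in edgeR, where 10.4% of all genes were called. The count at an unadjusted p under 0.05 was 3, and DESeq2 called 0. Here and below, the share of all genes at an unadjusted p under 0.05 was not counted, so such counts have no background beside them. The median log2 fold change of the 9 genes was 0.41 (0.004 for all genes). Both MS023 libraries lay above both untreated ones in 6 genes and below both in 2, with the share of all genes not counted. B2M, the light chain, stood at 12.2 and 14.0 CPM against 9.90 and 8.56 CPM in untreated cells, which was its highest level in any of the 15 groups (log2 fold change 0.51, adjusted p = 0.0517 by edgeR). HLA-E stood at 20.5 and 24.6 CPM (log2 fold change 0.41, adjusted p = 0.0558 by edgeR). With total counts as the only scaling 6 genes were called, the median of the 9 was 1.08 against 0.675 for all genes, and 40.3% of all genes were called. With only the compared groups in the fit 2 genes were called, and 2 were called when the pair of MS023 with Dex 3 h libraries that differed most was removed, an alternative chosen after seeing the data.

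At 7 days of MS023 the immunoproteasome subunit PSMB8 was the only gene called, with 13.6% of all genes called and 7.13% called higher. It stood at 3.97 and 3.55 CPM, close to its level at 4 days (log2 fold change 0.97, SE 0.327, adjusted p = 0.0383 by edgeR). The call was lost in DESeq2 (adjusted p = 0.14), without untreated replicate 2 (log2 fold change 0.55), without MS023 7 days replicate 1 (0.88) and without MS023 7 days replicate 2 (1.05). HLA-E stood at 21.3 and 16.0 CPM, on either side of the untreated libraries, and HLA-C stood at 9.07 and 11.2 CPM. The median log2 fold change of the 9 genes was 0.17 (0.006 for all genes).

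The change between days was tested directly between MS023 groups. No untreated group matched these times, so days in culture and days with MS023 cannot be told apart. From 2 to 4 days of MS023 none of the 9 genes passed in edgeR (4.91% of all genes called, 2 of the 9 at an unadjusted p under 0.05, 0 in DESeq2). TAP1, the transporter subunit, had the largest difference in this step, from 5.48 and 6.09 CPM to 9.03 and 8.47 CPM (log2 fold change 0.59, adjusted p = 0.0747 by edgeR). From 4 to 7 days HLA-E fell, the only one of the 9 genes called (9.04% of all genes were called and 4.76% were called lower). Its log2 fold change was -0.49 (SE 0.134, adjusted p = 0.0134 by edgeR), and 8 of the 9 genes had log2 fold changes below 0 in this step, with a median of -0.37 (0.008 for all genes). The HLA-E call was lost in DESeq2 (adjusted p = 0.0837), with total counts as the only scaling (log2 fold change -0.21), without MS023 7 days replicate 2 (-0.30) and without MS023 4 days replicate 1 (-0.52) or replicate 2 (-0.46).

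**Figure D3:**
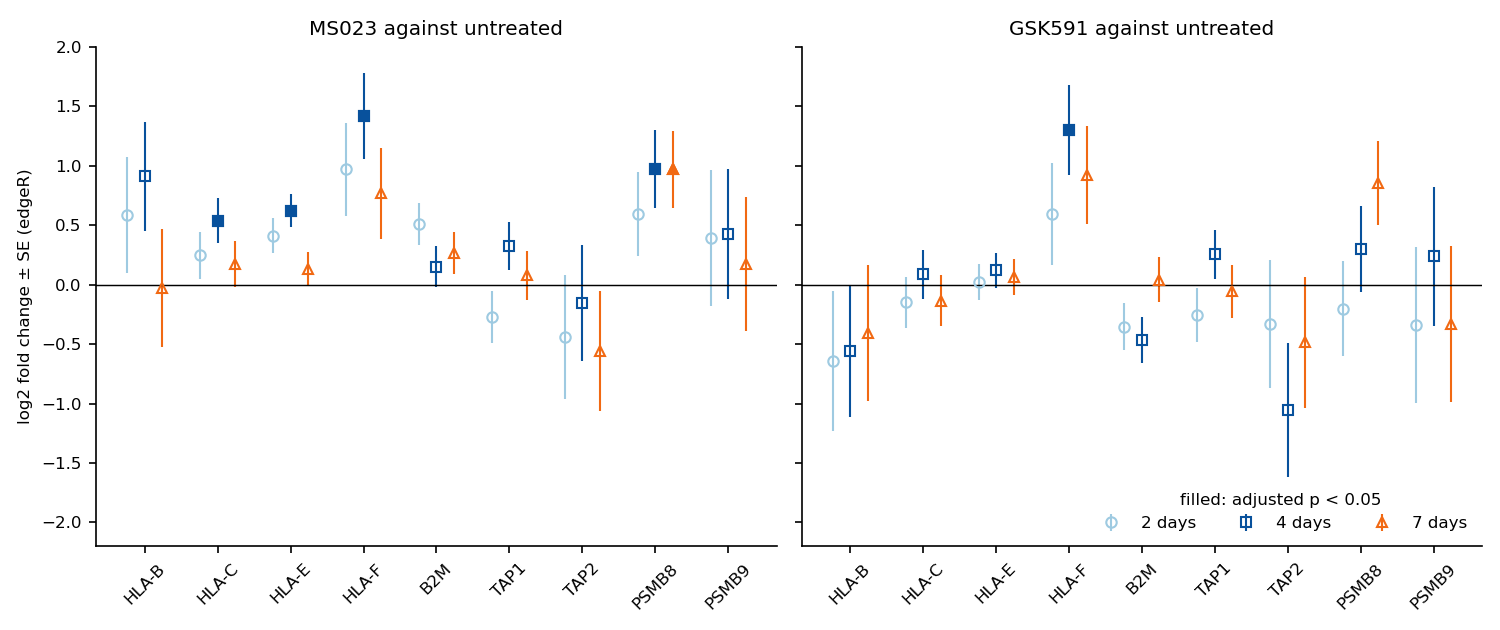
Log2 fold change against untreated cells (vertical axis, with SE bars) of the 9 genes after MS023 (left) and GSK591 (right) for 2 days (circles), 4 days (squares) and 7 days (triangles), filled where the adjusted p was below 0.05. With MS023, HLA-C, HLA-E, HLA-F and PSMB8 are filled at 4 days and PSMB8 at 7 days, whereas with GSK591 the only filled point is HLA-F at 4 days.

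GSK591, which acts on PRMT5, was set against the same untreated libraries, so these comparisons share their controls with those of MS023. At 4 days HLA-F rose and no other gene of the 9 was called (17.2% of all genes called, 8.91% called higher). It stood at 2.40 and 3.11 CPM against 1.00 and 1.21 CPM in untreated cells, a log2 fold change of 1.30 (SE 0.380, adjusted p = 0.0122 by edgeR). The call was lost in DESeq2 (adjusted p = 0.0589), without untreated replicate 1 (log2 fold change 1.18), without untreated replicate 2 (1.45) and without GSK591 4 days replicate 2 (1.11). B2M stood at 5.86 and 7.52 CPM, below both untreated libraries (log2 fold change -0.46, adjusted p = 0.0891 by edgeR), and HLA-C and HLA-E had log2 fold changes of 0.09 and 0.12. The median of the 9 genes was 0.12 (-0.002 for all genes).

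At 2 days of GSK591 none of the 9 genes passed in edgeR, and none had an unadjusted p under 0.05 (5.64% of all genes called). At 7 days none passed either, with 2 at an unadjusted p under 0.05 (13.2% of all genes called). DESeq2 called 0 at both times. PSMB8 at 7 days stood at 3.95 and 2.95 CPM, above both untreated libraries (log2 fold change 0.86, adjusted p = 0.102 by edgeR). That value is close to its log2 fold change of 0.97 after MS023 for the same time, which was called.

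Both inhibitors were given at 1 µM for the same times, and their groups were compared with each other in 3 pairs. At 4 days all 9 log2 fold changes of MS023 over GSK591 were above 0, with a median of 0.50 (0.001 for all genes). Those of TAP1 (0.07), HLA-F (0.12) and PSMB9 (0.19) were smaller than their SE. HLA-E and B2M were called higher with MS023 (6.03% of all genes called, 3.52% called higher). HLA-E stood at 25.5 and 26.8 CPM with MS023 against 17.5 and 19.5 CPM with GSK591, a log2 fold change of 0.50 (SE 0.138, adjusted p = 0.0171 by edgeR). B2M stood at 10.5 and 9.97 CPM against 5.86 and 7.52 CPM, a log2 fold change of 0.62 (SE 0.182, adjusted p = 0.0298 by edgeR). In neither gene did the groups overlap. At an unadjusted p under 0.05 there were 5 of the 9, a count without the share of all genes at that threshold. HLA-B, at 1.85 and 2.56 CPM against 0.288 and 1.30 CPM, had the largest difference of the 9 but did not pass (log2 fold change 1.47, adjusted p = 0.0581 by edgeR).

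These calls at 4 days were not stable to DESeq2, which called neither gene (adjusted p = 0.0975 for HLA-E and 0.135 for B2M). With the compared groups alone in the fit, 4 genes were called. HLA-E lost its call with each of the 4 libraries left out in turn (log2 fold changes of 0.44 to 0.58), and B2M lost it without GSK591 4 days replicate 1 (0.45) and without MS023 4 days replicate 1 (0.58) or replicate 2 (0.66). HLA-F, which was called against untreated cells with each inhibitor, had a log2 fold change of 0.12 between them (SE 0.306, adjusted p = 0.896 by edgeR), and a p that misses the threshold does not show that the inhibitors act alike on it.

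At 2 days B2M was the only gene of the 9 called between the inhibitors (2.69% of all genes called, 1.58% called higher). At an unadjusted p under 0.05 there were 4, and in 7 genes both MS023 libraries lay above both GSK591 ones. The share of all genes was counted for neither measure. B2M stood at 12.2 and 14.0 CPM with MS023 against 5.78 and 8.50 CPM with GSK591, a log2 fold change of 0.86 (SE 0.187, adjusted p = 0.00324 by edgeR). B2M kept its call in DESeq2 and lost it without GSK591 2 days replicate 1 (log2 fold change 0.62) and without MS023 2 days replicate 2 (0.76). At 7 days none of the 9 genes passed in edgeR (9.38% of all genes called, none of the 9 at an unadjusted p under 0.05, 0 in DESeq2), and the lowest and highest log2 fold changes were -0.15 for HLA-F and 0.51 for PSMB9. With total counts as the only scaling 8 of the 9 were called higher with MS023, the median of all genes moved to 1.07 and 69.9% of all genes were called.

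Glucocorticoids damp inflammatory gene transcription in many cells, and the response of the 9 genes to Dex was measured alone, together with an inhibitor and after an inhibitor. With Dex alone none passed in edgeR at 15 min (1.26% of all genes called) or at 3 h (10.5%). At each time 1 of the 9 had an unadjusted p under 0.05, and DESeq2 called 0. HLA-C at 15 min had its lowest level in any group, 6.32 and 6.40 CPM against 7.67 and 10.2 CPM (log2 fold change -0.49, adjusted p = 0.509 by edgeR). HLA-F at 3 h stood at 2.02 and 1.95 CPM, above both untreated libraries (log2 fold change 0.84, adjusted p = 0.211 by edgeR).

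Adding an inhibitor for the same 3 h gave no call against Dex alone, with either GSK591 (0% of all genes called) or MS023 (0.196%). None of the 9 genes had an unadjusted p under 0.05 in edgeR in these comparisons, and DESeq2 called none of them. After 7 days of GSK591, Dex for 15 min gave no call (2.09% of all genes, none of the 9 at an unadjusted p under 0.05). Dex for 3 h then raised TAP1, the ATP-binding transporter subunit (9.85% of all genes called, 5.39% called higher). TAP1 stood at 10.5 and 10.7 CPM against 6.86 and 6.57 CPM after GSK591 alone, a log2 fold change of 0.65 (SE 0.211, adjusted p = 0.0375 by edgeR).

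This was the highest level of TAP1 in any group, and its replicates agreed closely. The call was lost in DESeq2 (adjusted p = 0.152), with no filter on low counts (adjusted p = 0.0534) and with total counts as the only scaling (adjusted p = 0.0504). It was also lost without each of the 4 libraries in turn, although the log2 fold change stayed between 0.62 and 0.69. HLA-F had its highest level in the same group, 4.19 and 3.90 CPM against 2.33 and 1.88 CPM after GSK591 alone (log2 fold change 0.93, adjusted p = 0.0698 by edgeR).

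After 7 days of MS023, Dex gave no call in edgeR at 15 min (2.07% of all genes called) or at 3 h (11.1%), with 1 and 2 of the 9 genes at an unadjusted p under 0.05. DESeq2 called 0 at both times. PSMB8 stood at 2.49 and 2.07 CPM after Dex for 3 h, below 3.97 and 3.55 CPM after MS023 alone (log2 fold change -0.72, adjusted p = 0.119 by edgeR). TAP1 stood at 10.2 and 9.08 CPM, above 8.15 and 6.59 CPM after MS023 alone (log2 fold change 0.39, adjusted p = 0.205). Whether the 3 h response to Dex differs after an inhibitor was tested as an interaction, and none of the 9 genes passed in edgeR for GSK591 (0.223% of all genes called) or for MS023 (0.223%). None had an unadjusted p under 0.05 in either interaction, and DESeq2 called 0. The interaction of TAP1 with GSK591 was 0.53 on the log2 scale (adjusted p = 0.652 by edgeR).

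Every comparison against untreated cells can be set beside the authors' deposited tables, which come from another counting of the same libraries. In the authors' deposited table for MS023 at 4 days, HLA-E (log2 fold change 0.41, adjusted p = 0.0461) and PSMB8 (1.41, adjusted p = 0.026) were called higher, which is 2 of the 8 class I genes with an adjusted p there, where 22.5% of all such genes were called. HLA-F had 0.78 (adjusted p = 0.0592) and HLA-C 0.16 (adjusted p = 0.515) in that table. HLA-E and PSMB8 were thus the genes called at 4 days in both sources. At 2 days of MS023 the authors' deposited table called B2M higher (log2 fold change 0.66, adjusted p = 0.00909), the only call among the 6 class I genes with an adjusted p, where 17.7% of all such genes were called. B2M missed the threshold in the edgeR fit at that time.

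The authors' deposited table for Dex at 15 min called HLA-E lower (log2 fold change -0.63, adjusted p = 0.0154, where 3.93% of the genes with an adjusted p were called), where the counts gave -0.14. Their deposited table for GSK591 for 7 days followed by Dex for 3 h called TAP2 lower against untreated cells (-0.87, adjusted p = 0.0219, where 34.2% of the genes with an adjusted p were called), a comparison not run on the counts, in which TAP2 stood at 1.75 CPM in untreated cells and 0.615 CPM in that group. For GSK591 at 4 days the authors' deposited table gives HLA-F a log2 fold change of 0.08 (adjusted p = 0.774), where the counts gave 1.30, so the sources differed there. The mean normalised count in the authors' deposited tables was 18.3 for HLA-C and 22.6 for TAP1, well under their median of 85 and 71 counts per library in the count table, while TAP2 had 39.1 against 10.5. The cause of these differences was not tested.

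**Figure D4:**
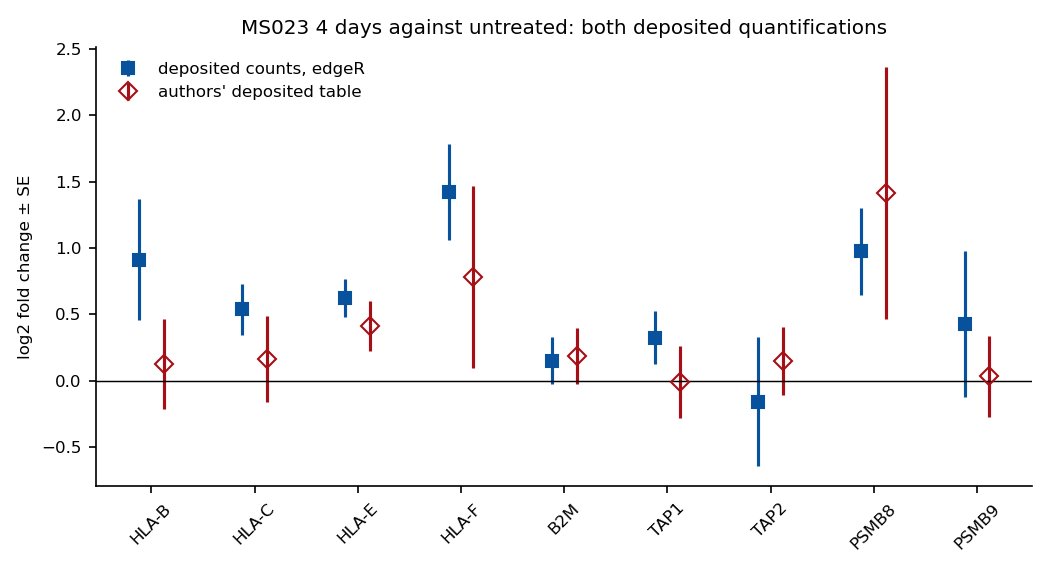
Log2 fold change of the 9 genes after MS023 for 4 days against untreated cells (vertical axis, with SE bars), from the deposited counts by edgeR (squares) and from the authors' deposited table (diamonds). HLA-E, HLA-F and PSMB8 lie well above 0 in both, while HLA-B, HLA-C, TAP1 and PSMB9 lie nearer to 0 in the authors' deposited table.

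Across the 15 groups the 9 genes did not share a single pattern. The ratio of the highest to the lowest group mean ran from 1.70 for HLA-E to 3.88 for HLA-B. When the groups were put in order of their mean, the libraries of neighbouring groups overlapped in all 14 steps for HLA-B, TAP2, PSMB8 and PSMB9, so their order carries little information. They overlapped in 13 of 14 steps for HLA-E, 12 for HLA-C and HLA-F, 11 for B2M and 10 for TAP1. In HLA-C and HLA-E the step that did not overlap at the top set MS023 for 4 days apart from all other groups, and in B2M it set MS023 for 2 days apart. In HLA-F and TAP1 the top step set GSK591 for 7 days followed by Dex for 3 h apart.

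TAP2, the partner of TAP1, stood at 1.78 and 1.71 CPM in untreated cells and between 0.312 and 2.42 CPM over all libraries. Pearson's r of the group means of log2 CPM, given as a description over the 15 groups, with both genes of a pair read from the same libraries, had a median of 0.303 over the 36 pairs of genes. It was highest for HLA-B with HLA-E (0.796) and HLA-C with HLA-E (0.750) and lowest for HLA-F with TAP2 (-0.526). It exceeded 0.5 in 9 pairs and was below 0 in 7. HLA-B with HLA-C had 0.488. Reads shared between the similar sequences of the heavy chains can raise these values, and their part was not tested.

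The mean pattern of the 9 genes, each centred and scaled over the groups, was highest after MS023 for 4 days (1.47 SD units) and 2 days (0.763) and lowest after GSK591 for 2 days (-0.795). Among the 11113 genes whose mean reached 5 CPM, those with the highest Pearson's r with this pattern over the 15 groups were AC099343.3 (0.879), AC005498.3 (0.836), ZNF594 (0.812), NKD2 (0.798) and LY6E (0.795). The single closest gene was IFITM3 for HLA-E (0.804), KIF21B for HLA-C (0.879), SEC16A for HLA-B (0.741) and MMP14 for HLA-F (0.916). It was CSTF2T for B2M (0.880), C17orf58 for TAP1 (0.864), AKAP8 for TAP2 (0.888), DTX3L for PSMB8 (0.827) and AL136038.3 for PSMB9 (0.722). No test goes with these values, since the highest of many correlations is large by selection.

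The rest of the pathway was read in the comparison with the most calls among the 9 genes, MS023 for 4 days against untreated cells, beside the 14.2% of all genes called there. Of 10 genes of peptide loading and trimming, none passed in edgeR and 1 had an unadjusted p under 0.05, with a median log2 fold change of -0.12. ERAP1, which trims peptides in the endoplasmic reticulum, came nearest (0.35, adjusted p = 0.0509), and TAPBP, the bridge between TAP and the heavy chain, had 0.12 (adjusted p = 0.537). Of 5 genes of the proteasome activator and other immunoproteasome parts none passed and 1 had an unadjusted p under 0.05. PSMB10, the remaining catalytic subunit of the immunoproteasome, had 0.04 (adjusted p = 0.854), and PSME2, a subunit of the activator, had 0.49 (adjusted p = 0.0574).

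Of 14 genes of the constitutive 20S proteasome 1 rose and none fell, with a median of -0.21. The gene that rose was PSMA6, a structural alpha subunit, from 10.2 to 15.2 CPM (log2 fold change 0.58, adjusted p = 0.00749 by edgeR), and the authors' deposited table gives it 0.03 (adjusted p = 0.919). PSMB5, the subunit that PSMB8 takes the place of, stood at 17.2 CPM in untreated cells and 13.6 CPM after MS023 (log2 fold change -0.34, adjusted p = 0.153 by edgeR).

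Of 15 regulators of class I transcription 2 rose and none fell, with a median of 0.03. IRF9, a DNA-binding factor that acts downstream of type I interferon, stood at 3.34 and 2.72 CPM in untreated cells and at 7.67 and 8.62 CPM after MS023 for 4 days. Its log2 fold change was 1.43 (SE 0.253, adjusted p = 4.5e-05 by edgeR), and the authors' deposited table gives 1.76 (adjusted p = 8.44e-19). CIITA, the master regulator of class II genes, rose from 8.44 to 12.0 CPM (0.50, adjusted p = 0.0327 by edgeR), although the authors' deposited table gives it a mean normalised count of 4.03 and 0.01. NLRC5, the class I counterpart of CIITA, had a log2 fold change of -0.04 (adjusted p = 0.908).

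Of 7 other class I HLA genes and pseudogenes that could be tested 2 rose and none fell. The pseudogene HLA-L rose from 2.45 and 2.02 CPM to 3.70 and 4.84 CPM (log2 fold change 0.94, adjusted p = 0.0262 by edgeR), and the authors' deposited table gives it 0.04 (adjusted p = 0.91). HLA-Z, a short pseudogene fragment at chromosome 6, 32896416 to 32896490, had 0 and 1 counts in untreated cells and 10 and 15 after MS023 for 4 days. Those counts are too low for a useful fold change. All 7 log2 fold changes in this list were above 0, and how reads that fit several of these genes were counted is not given in the sources used here.

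Of 8 class I-like molecules tested 1 rose, FCGRT, the heavy chain of the neonatal Fc receptor, which also pairs with B2M. It rose from 4.95 to 8.57 CPM (log2 fold change 0.80, adjusted p = 0.0133 by edgeR), against 0.30 (adjusted p = 0.282) in the authors' deposited table. Of 13 genes of class II presentation 4 had enough counts, and 1 rose and 1 fell. HLA-DMB (chromosome 6, 32934629 to 32941070), a chain of the editor that exchanges peptides on class II molecules, had 6 and 2 counts in untreated cells and 77 and 97 after MS023 for 4 days. Its log2 fold change was 3.83 (SE 0.463, adjusted p = 1.97e-08 by edgeR), and the authors' deposited table gives 3.93 (adjusted p = 1.24e-07). Its partner HLA-DMA had 0.27 (adjusted p = 0.509 by edgeR) from the counts and 2.04 (adjusted p = 0.00295) in the authors' deposited table. CD74, the invariant chain, fell from 14.9 to 7.79 CPM (-0.94, adjusted p = 7.89e-05 by edgeR), but its mean normalised count in the authors' deposited tables is 1.66, with no adjusted p.

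**Figure D5:**
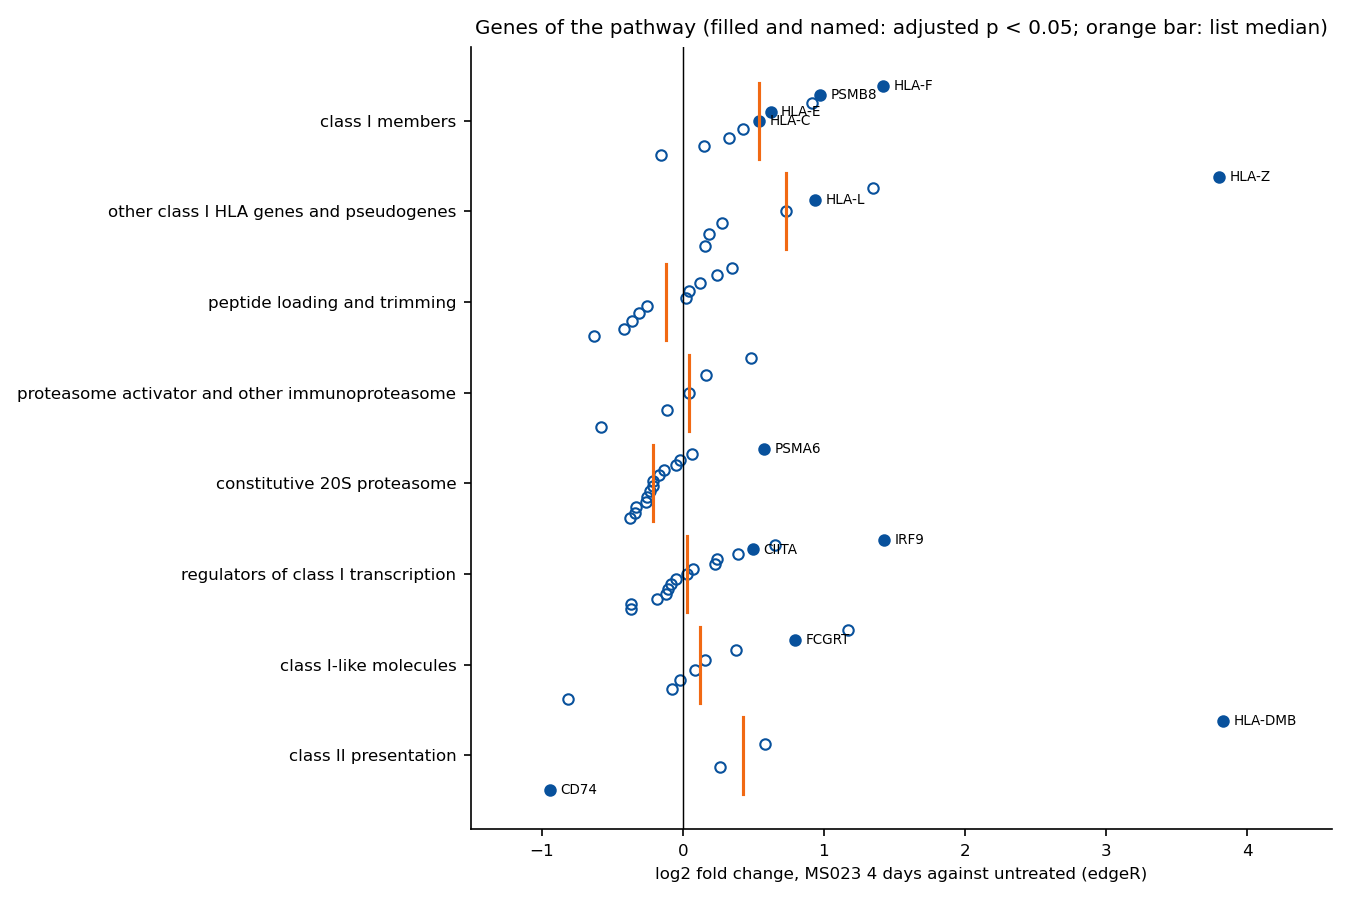
Log2 fold change after MS023 for 4 days against untreated cells (horizontal axis) for the tested genes of each list (rows), filled and named where the adjusted p was below 0.05, with an orange bar at the list median. HLA-DMB (3.83) and HLA-Z lie far to the right, IRF9 and HLA-F lie at 1.43 and 1.42, and the proteasome and peptide loading lists lie around or below 0.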

How the data were processed

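PRO-seq libraries of 15 groups of 2 A549 samples were analysed from the authors' deposited files. The authors deposited raw whole-number counts per gene, 58780 genes in all. Per the submitters' processing notes featureCounts 2.0.1 (Subread) and hg38 were used. The aligner, the feature type counted and the use of strand are not given in the sources used here. All gene identifiers matched GENCODE 29. The authors also deposited DESeq2-style tables of comparisons with untreated cells, per the file headers. Their baseMean is the authors' mean signal in normalised counts, the log2 values are the authors' fold changes with their errors, and each p-value, raw or adjusted, is the authors' own, per the file headers.

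Counts were tested with the edgeR 4.0.16 quasi-likelihood test (R 4.3.3, limma 3.58.1, TMM scaling, robust fit, filterByExpr with a minimum count of 10). A single fit took all 15 groups, without covariates and with 15 residual degrees of freedom, since 2 samples per group leave few degrees of freedom in a single pair. Benjamini-Hochberg adjustment ran over 22919 genes in each of 21 comparisons, with a threshold of 0.05. Percentages of all genes called refer to adjusted p, and no share of all genes at an unadjusted p was counted. The common biological variation was 10.6% and prior degrees of freedom had a median of 34.1. The SE was taken as the log2 fold change divided by the root of the F statistic. CPM values are TMM-scaled, and levels between genes were compared per kilobase of union exonic length. Comparison of 2 groups of 2 by permutation cannot reach the threshold, so the tests borrow the spread of all groups. The procedure was tested on simulated data. Values of some list genes are not reported here. Molecular identifiers are not mentioned, so counts cover counting error only.

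The 9 genes and all gene lists were chosen with earlier results of these data known. Beside the 9, the text names from each list the called genes of the comparison with the most of the 9 called, up to 5 by size, and the genes with the nearest pattern over groups, on log2(CPM + 0.5). List genes given without a call, and genes that overlap any of the 9, were chosen after their values were seen. Alternatives were DESeq2 1.42.0, DESeq2 size factors, no filter on low counts, total counts as the only scaling, the compared groups alone, mitochondrial and ribosomal RNA genes removed, the replicate block and leaving out each replicate. Removing both MS023 with Dex 3 h libraries was added after seeing the data.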

Additional observations from a re-analysis of the deposited data

Results flagged for a closer look

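HLA-E was the 1 gene of the 9 called in a direct test between MS023 groups of different treatment times. Its log2 fold change from 4 to 7 days was -0.49 (edgeR), after 0.62 at 4 days and 0.13 at 7 days against untreated cells. The call was lost in 2 of 8 alternative settings, and leaving out single libraries gave -0.71 to -0.30. No untreated group matched these times, so days in culture and days with MS023 cannot be told apart. For TAP1 and HLA-B, both libraries of 1 group moved one way and both of another the opposite way under like contrasts, and these differences were not tested. TAP1 after GSK591 lay below untreated cells at 2 days (-0.26), above at 4 days (0.26) and below at 7 days (-0.05). With Dex for 15 min TAP1 lay above untreated cells (0.13) and, after 7 days of GSK591, below GSK591 alone (-0.43). HLA-B did the opposite, at -0.46 and 0.92. None of these TAP1 and HLA-B values passed the threshold.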

How the results depend on the processing

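No called gene of the 9 reversed its direction. Of 132 values of 11 called results for single genes under alternatives, 91 kept their call and 41 lost it. Of 14 counts of 0, 11 were 0 under every alternative run. The counts of called genes moved as follows. With DESeq2 they were 2 for MS023 at 4 days (4 as reported), and 0 for MS023 at 7 days, GSK591 at 4 days, MS023 against GSK591 at 4 days, MS023 from 4 to 7 days and Dex for 3 h after GSK591. With total counts as the only scaling, which moved the median of all genes by 0.675, 0.741 and 1.02 at 2, 4 and 7 days of MS023, they were 6, 7 and 6. They were 2 and 8 for MS023 against GSK591 at 2 and 7 days, 0 for MS023 from 4 to 7 days, and 0 for Dex for 3 h after GSK591. With the compared groups alone they were 2 for MS023 at 2 days, 4 for MS023 against GSK591 at 4 days and 1 for MS023 from 2 to 4 days. Without a filter on low counts Dex for 3 h after GSK591 had 0. Without both MS023 with Dex 3 h libraries, MS023 at 2 days had 2 and MS023 from 2 to 4 days had 1. Leaving out each replicate gave 1 to 3 for MS023 at 4 days, 0 to 1 for MS023 at 7 days, GSK591 at 4 days, MS023 from 4 to 7 days and MS023 against GSK591 at 2 days, and 0 to 2 for MS023 against GSK591 at 4 days. It gave 0 in all others. Where an arm kept a single library, it was assumed to vary like the other groups. The causes were not tested. Replicate numbers did not pair the samples (r above 0.1 in 22 of 105 group pairs, median 0.02). With the replicate block 4 genes were called for MS023 at 4 days, and the block changed no count and no call of a single gene. Depth limits HLA-B, TAP2 and PSMB9 most.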
